A study of Mus musculus with 9 samples.

Results

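The 7 genes described here encode channel subunits of the gap junction and pannexin families: the connexin genes Gjd2, Gjc1, Gjb1, Gjb6 and Gjc3 and the pannexin genes Panx1 and Panx2. They were chosen by name and found by their Ensembl identifiers, 7 of the 37620 identifiers counted in each sample. RNA attached to ribosomes was taken from the hippocampus of PV-Cre; Rpl22HA/HA mice, in which parvalbumin-driven Cre puts an HA tag on the ribosomal protein RPL22 of parvalbumin interneurons (PV INs). The dentate gyrus (DG) of 2-month-old mice received lentivirus carrying either a non-targeting hairpin (shNT, 5 samples) or a hairpin against Ablim3 (shRNA, 4 samples), and CA3/CA2 tissue was collected 2 weeks later for HA immunoprecipitation and sequencing. All mice carried both alleles, each sample pooled tissue from 6 mice of both sexes, and the injection site was the DG, not the CA3/CA2 tissue whose RNA was measured. The comparison asks which PV IN transcripts differ after the manipulation of Ablim3 in the DG.

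Gap junctions are channels that join the cytoplasm of neighbouring cells. Each cell contributes a ring of connexins, and different cells use different ones. Gjd2 encodes Cx36, the main connexin of electrical synapses between neurons, and hippocampal PV INs are well known for being electrically coupled through it. Gjb6 encodes Cx30, a connexin of astrocytes, whereas Gjb1 (Cx32) and Gjc3 (Cx29) belong to myelinating glia. Gjc1 encodes Cx45, found in some neurons and in vascular smooth muscle. Panx1 and Panx2 are pannexins, relatives in shape but not in sequence. Panx1 forms large-pore channels through which ATP leaves cells. Panx2 is a pannexin abundant in brain and is found largely on internal membranes. The contrast of interest in a PV IN preparation is therefore the neuronal Gjd2 against the glial connexins.

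Genes that share a family differ in where they lie and in their promoters. On mm9, Gjd2 lies on chromosome 2 (113835337 to 113839355, minus strand), Gjc1 on chromosome 11 (102660893 to 102681014, minus strand) and Gjb1 on chromosome X (98571717 to 98580968, plus strand). Gjb6 lies on chromosome 14 (57742140 to 57752448, minus strand), and Gjb2, another connexin gene, ends 18.6 kb below it on the same strand. Gjc3 lies on chromosome 5 (138395037 to 138404187, minus strand), Panx1 on chromosome 9 (14809605 to 14849922, minus strand) and Panx2 on chromosome 15 (88890156 to 88903997, plus strand). All are protein-coding. Exons of 1 member are shared with other genes: 1.98% of the exonic bases of Gjd2 overlap A530058N18Rik and RP23-230H3.2 on the opposite strand, and counting did not use strand.

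The promoters of 2 members whose levels followed PV IN markers (Gjd2 and Panx1) and of 2 glial connexins (Gjb6 and Gjc3) are shown because they differ plainly in CpG content. Each window runs from 250 bases before to 50 bases after a start site, 5′ to 3′ on the strand of the gene, as given by RefSeq on GRCm38.p6. Capitals mark every CG dinucleotide, which reads the same on both strands.
Gjd2, chr2:114013570-114013869, minus strand: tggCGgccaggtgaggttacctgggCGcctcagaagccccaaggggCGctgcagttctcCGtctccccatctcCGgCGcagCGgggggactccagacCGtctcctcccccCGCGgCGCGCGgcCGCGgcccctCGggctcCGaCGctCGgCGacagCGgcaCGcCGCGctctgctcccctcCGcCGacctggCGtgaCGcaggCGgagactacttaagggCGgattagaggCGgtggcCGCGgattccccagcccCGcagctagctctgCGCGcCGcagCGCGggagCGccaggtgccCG
Panx1, chr9:15045429-15045728, minus strand: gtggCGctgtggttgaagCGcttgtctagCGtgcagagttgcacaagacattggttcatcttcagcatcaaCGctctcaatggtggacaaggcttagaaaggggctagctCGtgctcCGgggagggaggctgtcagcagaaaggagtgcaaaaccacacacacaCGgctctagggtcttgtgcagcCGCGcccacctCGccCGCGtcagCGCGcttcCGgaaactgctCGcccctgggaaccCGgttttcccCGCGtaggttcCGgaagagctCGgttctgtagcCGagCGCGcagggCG
Gjb6, chr14:57133562-57133861, minus strand: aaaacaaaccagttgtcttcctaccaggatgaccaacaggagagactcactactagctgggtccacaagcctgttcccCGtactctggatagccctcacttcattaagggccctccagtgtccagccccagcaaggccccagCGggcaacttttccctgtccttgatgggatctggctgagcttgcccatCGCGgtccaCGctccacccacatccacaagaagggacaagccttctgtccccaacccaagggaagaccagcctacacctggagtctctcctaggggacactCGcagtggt
Gjc3, chr5:137963049-137963348, minus strand: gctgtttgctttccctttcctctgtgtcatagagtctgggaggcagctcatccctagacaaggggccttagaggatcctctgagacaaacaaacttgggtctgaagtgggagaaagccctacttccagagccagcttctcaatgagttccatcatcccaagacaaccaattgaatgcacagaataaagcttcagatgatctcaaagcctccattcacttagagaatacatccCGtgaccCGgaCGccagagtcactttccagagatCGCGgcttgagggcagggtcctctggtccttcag
The Gjd2 window held 41 CG dinucleotides, a number reached by 3.46% of the 32851 windows of the same length, whose median was 7. The Panx1 window held 25, reached by 18.4% of windows. The windows of Gjb6 and Gjc3 sat near the middle of all windows, with 6 in Gjb6 (reached by 56.4% of windows) and 5 in Gjc3 (62.0%). Gjb1, also a glial connexin but not shown, had 4 start sites with 2, 3, 6 and 15, the last reached by 34.6%. RefSeq windows of 5 of the 7 members were matched. These counts describe the sequence and were not related to any measurement by a test.

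Library depth ran from 18281719 to 34578837 reads in genes. Among reads aligned once, 9.76% to 18.6% lay outside exons in shNT samples and 12.4% to 27.2% in shRNA samples, the highest being shNT replicate 2 and shRNA replicate 4 within their groups. The transcript targeted by the hairpin, Ablim3, was at 16.9 ± 5.16 CPM (read count scaled to library size with TMM factors) in shNT (SD, n = 5) and 18.5 ± 3.42 in shRNA (SD, n = 4), a log2 difference of 0.13 with an adjusted p of 0.701 by edgeR. This level in PV IN preparations does not measure knockdown in the injected DG. The sample names fall into 2 sets, YTa31 and YTa32, whose meaning the labels do not give. Summed PV IN markers, led per length by Pvalb, Gad1 and Tac1, reached 5062 to 8191 CPM in shNT and 2955 to 7255 in shRNA. The preparations also held glial and vascular transcripts, given below beside the members they moved with. In RNA pooled from many cells, fewer cells of a type and less RNA per cell cannot be told apart.

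Among the members, Panx2, Gjd2 and Panx1 were the most abundant per length in shNT, at 13.96 ± 1.54, 12.8 ± 1.54 and 12.5 ± 1.88 CPM per kb of exon (SD, n = 5). These 3 did not differ beyond their spread: Panx2 exceeded Gjd2 in 3 of 5 samples and Gjd2 exceeded Panx1 in 4 of 5. Gjb6 followed at 5.92 ± 0.536 CPM per kb, below Panx1 in 5 of 5 samples with no overlap of the ranges. Gjc3 (2.66 ± 1.86 CPM per kb) and Gjb1 (1.99 ± 0.395) came next, and their ranges overlapped each other. Gjc3 also reached into the range of Gjb6 in shNT replicate 2. Gjc1 was the lowest at 0.771 ± 0.306 CPM per kb and lay below Gjb1 in 5 of 5 samples. Thus the neuronal connexin was the most abundant of the 5 member connexins per length in every shNT sample, although the astrocyte connexin Gja1 (Cx43), not a member, stood higher at 20.3 CPM per kb.

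In shRNA the order on the same scale was Gjb6 (15.2 ± 13.5 CPM per kb, SD, n = 4), Panx2 (12.5 ± 2.89), Gjd2 (10.8 ± 5.35), Panx1 (9.40 ± 2.28), Gjc3 (5.39 ± 1.14), Gjb1 (3.27 ± 0.917) and Gjc1 (1.11 ± 1.29). The ranges of all neighbours in this order overlapped. Gjb6 took the first place through replicate 4, since it exceeded Panx2 in 1 of 4 samples.

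**Figure D1:**
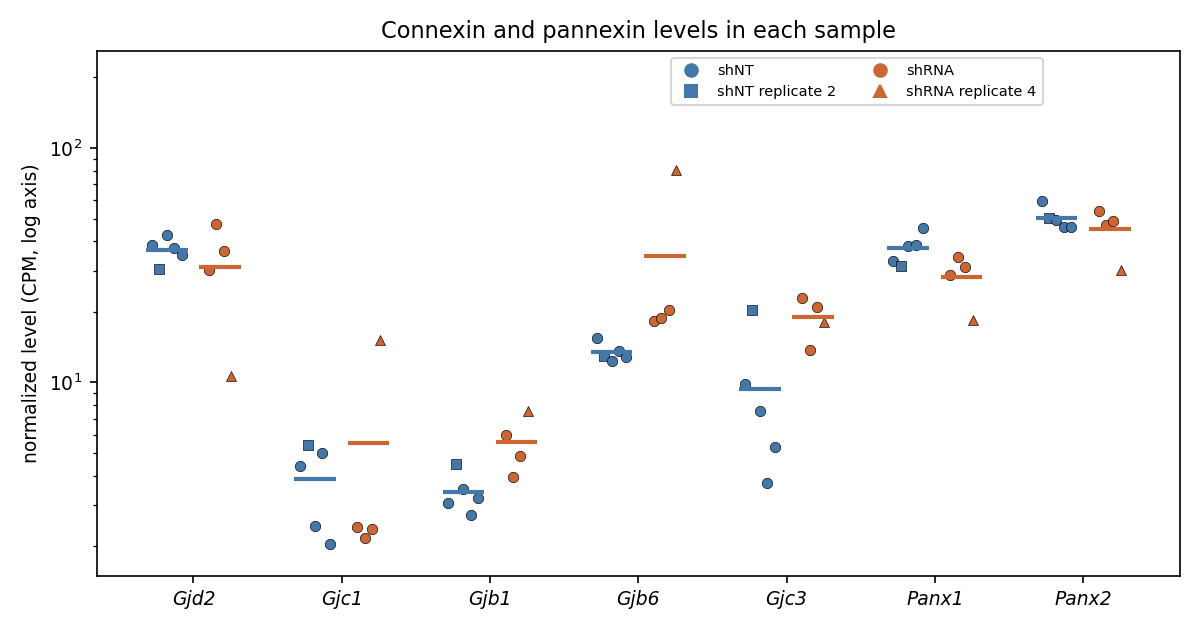
Normalized level of each member (CPM, log axis) in every shNT and shRNA sample, with horizontal lines at the group means. Every shRNA point lies above every shNT point for Gjb6 and for no other member, and shRNA replicate 4 (triangle) is the extreme shRNA sample for 6 of the 7 genes.

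Between shRNA and shNT, 0 of the 7 members were called at an adjusted p under 0.05 and at least 1.5-fold by edgeR's quasi-likelihood test, where 1.75% of the 15069 genes tested were called (1.74% higher and 0.0133% lower in shRNA). Of the other tools, edgeR's likelihood ratio test called 1 member, with 1688 of all genes called higher and 542 lower. DESeq2 called 1 (1519 and 844 of all genes) and limma voom with sample quality weights 3 (2301 and 618). At an unadjusted p under 0.05 there were 3 members, Gjb1, Gjb6 and Gjc3, against 34.1% of all genes tested. All 3 are glial connexins with higher means in shRNA. At an adjusted p under 0.1 by edgeR there were 2 members, Gjb1 and Gjb6, where 23.2% of all genes passed that level. Of the 7 members, 1 had groups that did not overlap, Gjb6, against 15.6% of genes (8.97% above and 6.68% below). The median log2 difference was 0.52 over the members and 0.11 over all genes tested, and 4 members had positive differences, where 57.9% of all genes did. All 7 members were tested, and no sign of theirs turned under 3 other scalings.

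Gjd2, the electrical synapse subunit, gave 38.7, 30.6, 42.5, 37.3 and 34.9 CPM in the 5 shNT samples and 30.1, 47.5, 36.2 and 10.7 CPM in the 4 shRNA samples. Both the highest and the lowest values were shRNA samples, and the shNT values lay between them. Gjd2 thus differed by -0.24 on the log2 scale (SE 0.32, 95% interval -0.94 to 0.46) with an adjusted p of 0.607 by edgeR's quasi-likelihood test. Without shRNA replicate 4 the log2 difference was 0.03 with an adjusted p of 0.903 by edgeR. The 3 YTa31 samples of each group gave a log2 difference of -0.003, and with reads outside exons as a term it was 0.19. The interval spans both a decrease and an increase of Gjd2, so a change of moderate size was not resolved in either direction.

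Gjb6, the astrocyte connexin Cx30, was at 15.5, 12.9, 12.4, 13.6 and 12.8 CPM in shNT and at 18.3, 18.8, 20.4 and 80.4 CPM in shRNA. All 4 shRNA samples lay above all 5 shNT samples, 3 of them closely and replicate 4 far above. On the log2 scale shRNA exceeded shNT by 1.36 (SE 0.41, 95% interval 0.46 to 2.26) with an adjusted p of 0.0678 by edgeR's quasi-likelihood test. Without shRNA replicate 4 it was 0.50 (adjusted p 0.0918 by edgeR). Within the YTa31 samples alone it was 0.46 (adjusted p 0.411 by edgeR, 3 against 3). With reads outside exons as a term in the fit it was 0.47 (adjusted p 0.347 by edgeR). DESeq2 gave an adjusted p of 0.0150, the likelihood ratio test 0.0161 and limma voom with sample quality weights 0.0152. The log2 difference in that weighted fit was 0.60. The summed astrocyte markers, 13 genes led per length by Aldoc, Gfap and Atp1b2, ran from 1204 to 1706 CPM in shNT and from 1600 to 6174 in shRNA, with replicate 4 the highest. None of the 13 was at 0 and none was called, where 1.75% of all genes were. All 13 had positive differences (57.9% of all genes did). Of the 13, 11 had an unadjusted p under 0.05 by edgeR, where 34.1% of all genes did. Their part in the Gjb6 difference was not tested.

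Gjc3 and Gjb1 are the connexins of myelinating glia. Gjc3 gave 9.89, 20.3, 7.58, 3.73 and 5.30 CPM in shNT and 23.0, 13.7, 20.9 and 18.1 CPM in shRNA. A single shNT sample, replicate 2, reached into the shRNA range. Gjc3 differed by 1.02 on the log2 scale (SE 0.41, 95% interval 0.13 to 1.91) with an adjusted p of 0.110 by edgeR's quasi-likelihood test. Without shNT replicate 2 Gjc3 was called higher in shRNA, with a log2 difference of 1.51 and an adjusted p of 0.0426 by edgeR. That fit called 481 of all genes higher and 1 lower. Without both shNT replicate 2 and shRNA replicate 4, a setting added after seeing the data, the values were 1.54 and 0.0255. There 678 of all genes were called higher and 2 lower. Both fits leave out the shNT sample that overlapped, so neither is an independent check of Gjc3. Within the YTa31 samples, which include shNT replicate 2, the difference was 0.57 (adjusted p 0.570 by edgeR), and with reads outside exons as a term 0.74 (adjusted p 0.212).

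Gjb1 gave 3.06, 4.50, 3.50, 2.72 and 3.23 CPM in shNT and 5.98, 3.94, 4.85 and 7.58 CPM in shRNA. The groups overlapped in 1 sample from each, shNT replicate 2 and shRNA replicate 2. The log2 difference was 0.72 (SE 0.25, 95% interval 0.18 to 1.25) with an adjusted p of 0.0819 by edgeR's quasi-likelihood test, 0.38 within the YTa31 samples (adjusted p 0.564) and 0.36 with reads outside exons as a term (adjusted p 0.215). The 14 oligodendrocyte markers, with Mbp and Mobp among the most abundant per length, summed to 896 to 2583 CPM in shNT and 1656 to 3254 in shRNA. The highest shNT sum was again replicate 2. All 14 had positive differences (57.9% of all genes did), none was called (1.75% of all genes were) and none was at 0. Of the 14, 10 had an unadjusted p under 0.05 by edgeR, where 34.1% of all genes did. Their part in the Gjc3 and Gjb1 values was not tested.

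Gjc1 (Cx45) was the least abundant member per length, though not by mean CPM in shNT, with 45 to 337 reads per sample. It gave 4.41, 5.42, 2.44, 4.99 and 2.04 CPM in shNT and 2.43, 2.17, 2.37 and 15.2 CPM in shRNA. Replicate 4 alone carried the shRNA mean above the shNT mean, and the other shRNA samples sat at the low end of the shNT range. The log2 difference was 0.52 (SE 0.59) with an adjusted p of 0.541 by edgeR's quasi-likelihood test, and -0.75 without that sample (adjusted p 0.208 by edgeR). Within the YTa31 samples it was -0.85 and with reads outside exons as a term -0.86. The mural cell markers, 7 genes led per length by Vtn, Rgs5 and Acta2, summed to 42.7 to 162 CPM in shNT and 36.0 to 299 in shRNA, again with replicate 4 the highest. The 9 endothelial markers, led by Ly6c1, Cldn5 and Slco1a4, ran from 100.3 to 308 and from 63.2 to 786 CPM. None of these 16 vascular markers was called or at 0, and none had an unadjusted p under 0.05 by edgeR (34.1% of all genes did).

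The pannexins lay slightly lower in shRNA without passing the test. Panx1, the ATP-releasing channel, gave 33.0, 31.3, 38.1, 38.5 and 45.7 CPM in shNT and 28.8, 34.2, 31.2 and 18.5 CPM in shRNA. The log2 difference was -0.41 (SE 0.19, 95% interval -0.82 to 0.01) with an adjusted p of 0.153 by edgeR's quasi-likelihood test, and -0.27 without shRNA replicate 4 (adjusted p 0.267). It was -0.15 both within the YTa31 samples (adjusted p 0.670 by edgeR) and with reads outside exons as a term (adjusted p 0.492). Panx2 gave 59.6, 50.5, 49.5, 46.2 and 46.0 CPM in shNT and 54.1, 47.1, 49.0 and 30.1 CPM in shRNA. Apart from replicate 4 the shRNA values of Panx2 lay within the shNT range. Its log2 difference was -0.16 (SE 0.17, 95% interval -0.54 to 0.22) with an adjusted p of 0.518 by edgeR, -0.03 without replicate 4, -0.12 within the YTa31 samples and -0.02 with reads outside exons as a term.

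**Figure D2:**
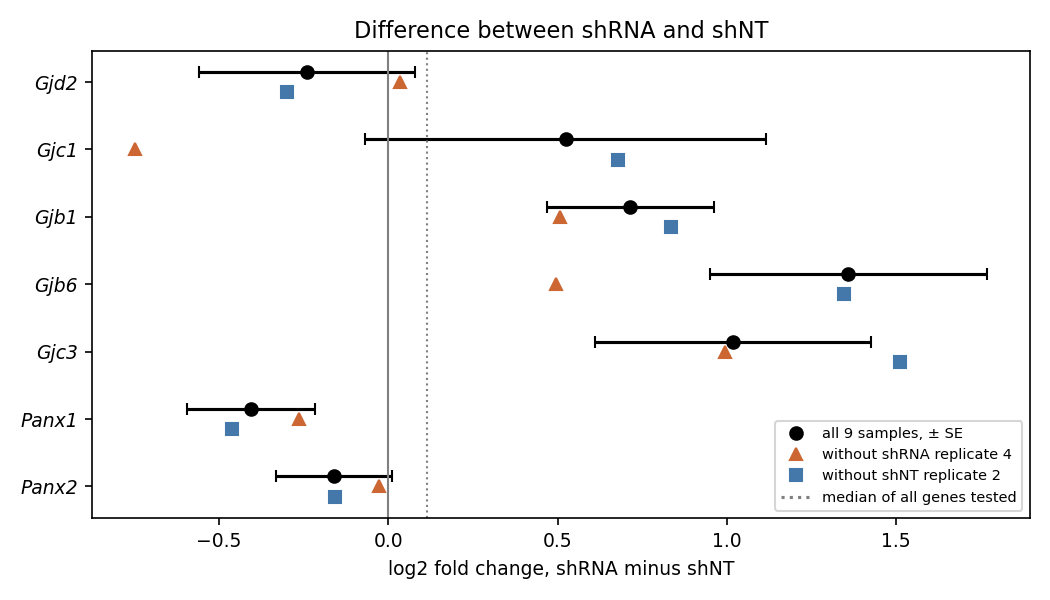
Log2 fold change of each member, shRNA minus shNT, with all 9 samples (circles, bars are SE), without shRNA replicate 4 (triangles) and without shNT replicate 2 (squares). The dotted line is the median of all genes tested, 0.11. Leaving out shRNA replicate 4 brings Gjd2 from -0.24 to 0.03, Gjb6 from 1.36 to 0.50 and Gjc1 from 0.52 to -0.75.

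Within a library, the ratio of Gjd2 to a glial connexin does not depend on how libraries are scaled to each other. Per length, Gjd2 stood at 1.97, 1.86, 2.70, 2.17 and 2.15 times Gjb6 in the shNT samples and at 1.29, 1.99, 1.40 and 0.105 times in the shRNA samples. Replicate 2 of shRNA lay among the shNT ratios, and the other 3 lay below all of them. Against Gjc3 the ratio per length ran from 1.84 to 12.2 in shNT and from 0.720 to 4.23 in shRNA, and against Gjb1 from 4.03 to 8.13 and from 0.836 to 7.14. Both pairs of ranges overlapped, and Gjd2 fell below these member connexins in 1 sample only, shRNA replicate 4, where it did so against all 3. Against the astrocyte connexin Gja1, which is no member, Gjd2 was lower per length in all 9 samples. The mean log2 ratio of reads was lower in shRNA by -1.45 for Gjb6, -1.10 for Gjb1 and -1.65 for Gjc3, given without a test. Without replicate 4 these differences were -0.49, -0.50 and -1.22. Gjd2 made up 41.1% to 59.2% of the summed CPM per kb of the 5 member connexins in shNT. In shRNA its share was 36.0%, 52.5%, 40.8% and 7.17%.

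**Figure D3:**
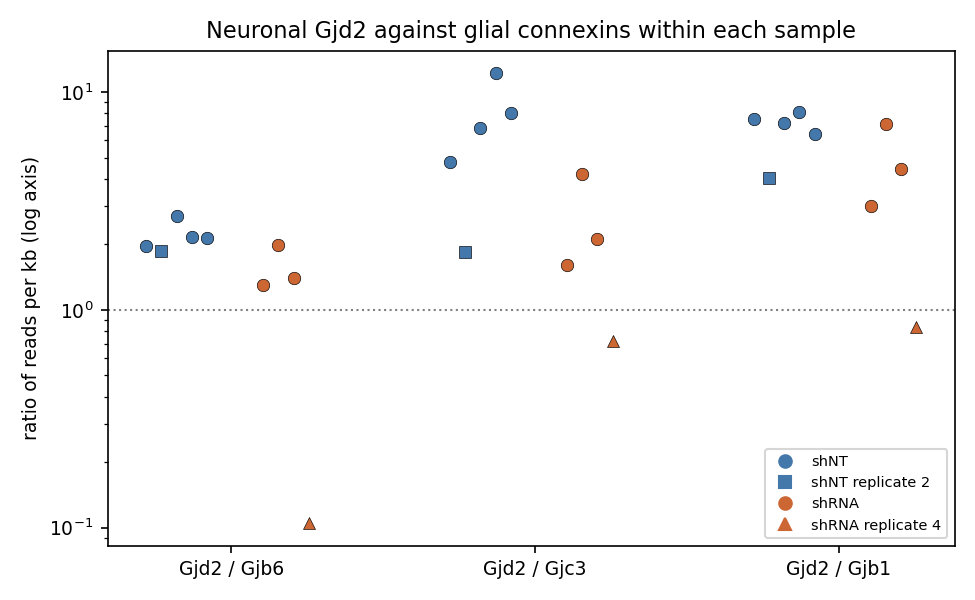
Ratio of Gjd2 to Gjb6, Gjc3 and Gjb1 in reads per kb of exon within each sample (log axis), with a dotted line where both genes are equal. All shNT points lie above the line, and shRNA replicate 4 lies below it for each pair, at 0.105, 0.720 and 0.836.

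Over the 9 samples the members' levels were set beside those of cell type markers. Each relation was computed on log2 CPM against the mean log2 CPM of a marker list or the share of reads outside exons, 91 relations in all, with exact two-sided permutation p-values adjusted by Benjamini-Hochberg. Many passed, 32 by Pearson's r and 19 by both r and Spearman's rho at an adjusted p under 0.05, so that a member could follow several lists at once. The samples share the group difference and the libraries that stand apart, and groups of 5 and 4 are too small for a value within each. Values without the 2 samples farthest from the median of the marker level, and within the 6 YTa31 samples, are given beside most relations. Both subsets keep shNT and shRNA samples, so these values still carry the group difference.

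Gjd2 followed the PV IN markers, with r = 0.936 (exact permutation p = 0.00169, adjusted p = 0.0118) and rho = 0.717 (exact permutation p = 0.0369, adjusted p = 0.0932). Without shNT replicate 2 and shRNA replicate 4, r was 0.657, and it was 0.879 within the YTa31 samples. Gjd2 was about as closely tied, in the opposite direction, to the share of reads outside exons, with r = -0.894 (exact permutation p = 0.00231, adjusted p = 0.0124) and rho = -0.717 (exact permutation p = 0.0369, adjusted p = 0.0932). That r was -0.588 without shRNA replicates 1 and 4 and -0.833 within YTa31. With leptomeningeal markers Gjd2 showed r = -0.899 (exact permutation p = 0.00585, adjusted p = 0.0254) and rho = -0.733 (exact permutation p = 0.0311, adjusted p = 0.0833), r being -0.403 without shNT replicate 2 and shRNA replicate 4 and -0.687 within YTa31.

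Panx1 also followed the PV IN markers, with r = 0.924 (exact permutation p = 0.000772, adjusted p = 0.0116) and rho = 0.867 (exact permutation p = 0.00451, adjusted p = 0.0373), r without shNT replicate 2 and shRNA replicate 4 being 0.782 and within YTa31 0.831. It too was tied to the share of reads outside exons, with r = -0.892 (exact permutation p = 0.00132, adjusted p = 0.0118) and rho = -0.783 (exact permutation p = 0.0172, adjusted p = 0.0580), r being -0.535 without shRNA replicates 1 and 4 and -0.807 within YTa31. With astrocyte markers its r was -0.911 (exact permutation p = 0.00357, adjusted p = 0.0180) and its rho -0.767 (exact permutation p = 0.0214, adjusted p = 0.0649), and r was -0.646 without shNT replicate 3 and shRNA replicate 4 and -0.557 within YTa31. With granule cell markers r was -0.794 (exact permutation p = 0.00798, adjusted p = 0.0290) and rho -0.917 (exact permutation p = 0.00131, adjusted p = 0.0239), a rank relation larger in size than that with PV IN markers, and r was -0.804 without shNT replicates 4 and 5 and -0.837 within YTa31. Panx2 showed r = 0.708 with the PV IN markers, with an exact permutation p of 0.0826 (adjusted p = 0.145). Without shNT replicate 2 and shRNA replicate 4 its r was -0.336, so the relation rests on them, and within YTa31 it was -0.032.

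Gjb6 followed the astrocyte markers most closely, with r = 0.990 (exact permutation p = 9.09e-05, adjusted p = 0.00414) and rho = 0.933 (exact permutation p = 0.00075, adjusted p = 0.0239). Without shNT replicate 3 and shRNA replicate 4, r was 0.915, and within YTa31 0.922. Gjc3 followed the oligodendrocyte markers with r = 0.926 (exact permutation p = 0.000579, adjusted p = 0.0105) and rho = 0.867 (exact permutation p = 0.00451, adjusted p = 0.0373). Without shNT replicates 4 and 5, r was 0.860, and within YTa31 0.894. Over the 9 samples Gjc3 was tied more closely to the pyramidal neuron markers, led per length by Slc17a7, Camk2a and Neurod6. There r was 0.953 (exact permutation p = 9.09e-05, adjusted p = 0.00414) and rho 0.933 (exact permutation p = 0.00075, adjusted p = 0.0239). Without the same samples that r was 0.884, and within YTa31 0.881. Oligodendrocyte precursor, granule cell and microglial markers also passed for Gjc3 by both r and rho, with r of 0.883, 0.898 and 0.871. Within YTa31 these were 0.711, 0.708 and 0.847.

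Gjb1 followed the oligodendrocyte markers with r = 0.887 (exact permutation p = 0.00151, adjusted p = 0.0118) and rho = 0.900 (exact permutation p = 0.00203, adjusted p = 0.0308). Without shNT replicates 4 and 5, r was 0.835, and within YTa31 0.799. Its r with the share of reads outside exons was 0.906 (exact permutation p = 0.000896, adjusted p = 0.0116, rho = 0.850 with exact permutation p = 0.00607 and adjusted p = 0.0395), 0.664 without shRNA replicates 1 and 4 and 0.794 within YTa31. Gjb1 was tied about as closely to PV IN markers (r = -0.881, rho = -0.833) and to choroid plexus markers (r = 0.873, rho = 0.917). Within YTa31 these r were -0.754 and 0.666. Both relations passed by r and rho, as did those of Gjb1 with oligodendrocyte precursor, pyramidal and granule cell markers (r = 0.819, 0.786 and 0.817). Gjc1 followed the mural cell markers with r = 0.965 (exact permutation p = 0.000237, adjusted p = 0.00719) and rho = 0.783 (exact permutation p = 0.0172, adjusted p = 0.0580). Without shNT replicate 2 and shRNA replicate 4, r was 0.892, and within YTa31 0.945. The endothelial markers gave Gjc1 a nearly equal r of 0.951 (exact permutation p = 0.000543, adjusted p = 0.0105) and a rho of 0.850 (exact permutation p = 0.00607, adjusted p = 0.0395), r being 0.830 without the same samples and 0.938 within YTa31. For the leptomeningeal markers r was 0.933 (exact permutation p = 0.00221, adjusted p = 0.0124) and rho 0.800 (exact permutation p = 0.0138, adjusted p = 0.0503), with r 0.661 without the same samples and 0.949 within YTa31.

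**Figure D4:**
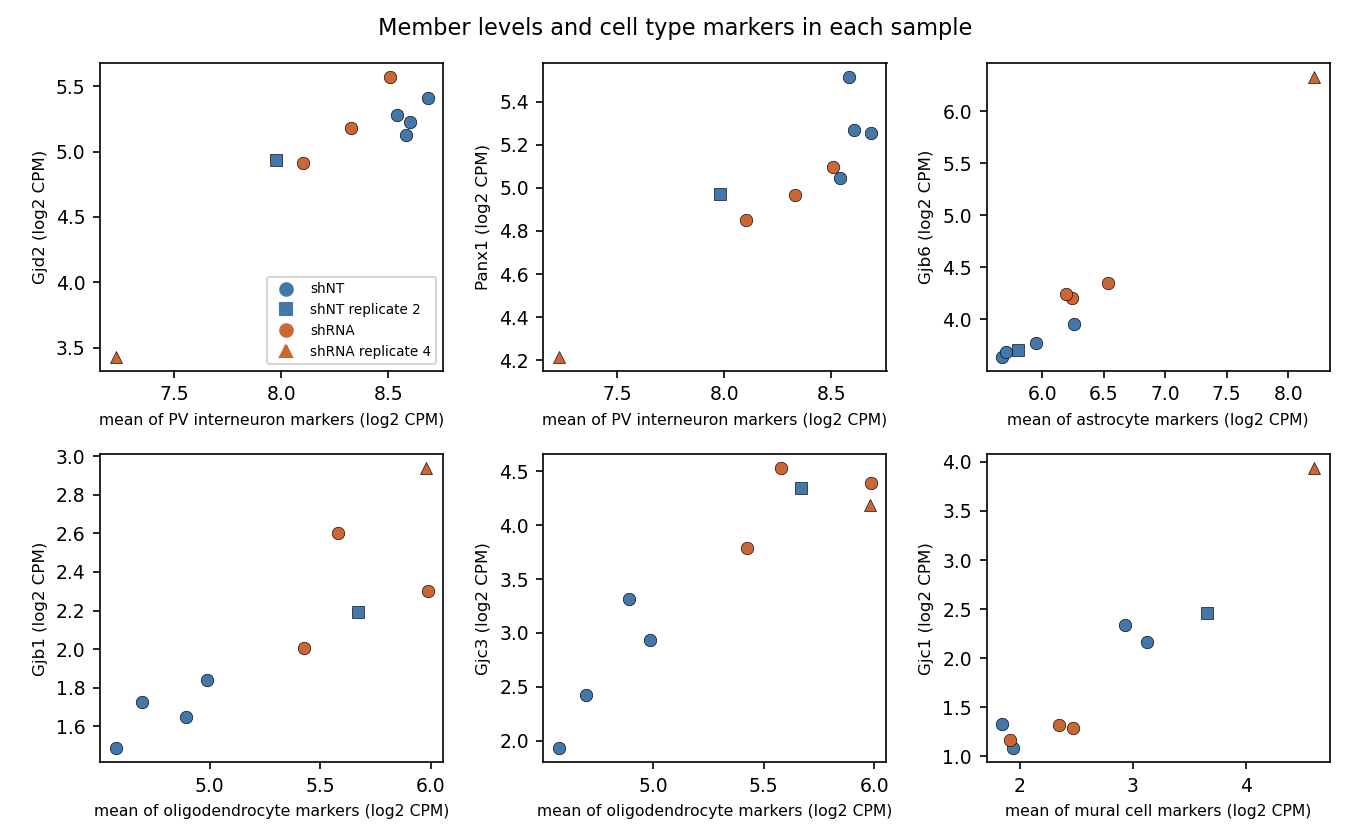
Level of 6 members (log2 CPM) against the mean level of the cell type markers named on each axis (log2 CPM), 1 point per sample. Gjd2 and Panx1 rise with PV interneuron markers (r = 0.936 and 0.924), Gjb6 with astrocyte markers (r = 0.990), Gjb1 and Gjc3 with oligodendrocyte markers (r = 0.887 and 0.926) and Gjc1 with mural cell markers (r = 0.965), and shRNA replicate 4 (triangle) sits apart in 4 of the 6 panels.

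The genes whose log2 CPM was most like each member over the 9 samples were sought among about 9491 genes with a mean of at least 10 CPM, as a description. They were Frs3, Snx25 and Zfp467 for Gjd2 (r = 0.987, 0.981 and 0.979), Dok5, Stx7 and Rrp1 for Panx1 (0.994, 0.994 and 0.993) and Brsk1, Stk32c and Rab5c for Panx2 (0.970, 0.965 and 0.960). For the glial connexins they were Peli1, Rorb and Zfp266 for Gjb6 (0.992, 0.991 and 0.989), Neurod2, Pdzd2 and Usp34 for Gjc3 (0.986, 0.978 and 0.975) and Pan3, Pxdn and Agpat4 for Gjb1 (0.984, 0.977 and 0.973). Nkd1, Tmem204 and Kitl were most like Gjc1 (0.972, 0.971 and 0.970).

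The rest of the family comprised 16 genes, of which 5 reached the filter of 1 CPM in at least 1 sample. Of these 5, 0 were called by edgeR's quasi-likelihood test, and 2 had an unadjusted p under 0.05, where 34.1% of all genes did. The likelihood ratio test called 2, DESeq2 1 and limma voom 0, to be read beside their counts over all genes given above. DESeq2 gave no adjusted p for Gja1 and Gja5, so it could not call them. The astrocyte connexin Gja1 was at 81.7, 48.5, 61.9, 72.2 and 50.2 CPM in shNT and at 63.0, 80.6, 101.2 and 588 CPM in shRNA. Only replicate 4 stood far from the rest, and the log2 difference of 1.73 (adjusted p 0.0785 by edgeR) was 0.37 without it. Gjb2 (Cx26), the neighbour of Gjb6, was low at 0.750 ± 0.126 CPM in shNT (SD, n = 5) and 1.99 ± 1.66 in shRNA (SD, n = 4). Every shRNA sample of Gjb2 lay above every shNT sample, against 8.97% of all genes. Its log2 difference was 1.40 (adjusted p 0.0770 by edgeR), and 0.62 without replicate 4. The vascular connexins Gja4 (Cx37) and Gja5 (Cx40) differed by -0.37 and 1.28 (adjusted p 0.579 and 0.163 by edgeR). Gjb2 and Gja5 reached the filter through shRNA samples. The other 11 were below the filter, with Gjb5 and Panx3 at 0 reads in all 9 samples.

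Among 8 partners of gap junctions, 1 was called, against 1.74% of all genes in that direction. Tjp1 encodes ZO-1, a scaffold protein that binds connexins, Cx36 among them, and also serves tight junctions. It gave 70.4, 38.6, 27.1, 16.0 and 15.9 CPM in shNT and 169, 127, 196 and 90.6 CPM in shRNA. All 4 shRNA values lay above all 5 shNT values. The difference on the log2 scale was 2.12 (adjusted p 0.0414 by edgeR's quasi-likelihood test), and the adjusted p ran from 0.0123 to 0.169 when samples were left out in turn. It missed 0.05 without any of shNT replicates 3, 4 and 5 (0.0744, 0.155 and 0.169) and shRNA replicates 1 and 3 (0.0860 and 0.121). It also missed it with library size alone (0.0708), upper quartile scaling (0.0667), filterByExpr (0.0646), the covariate of reads outside exons (0.0785) and the YTa31 samples (0.219). The other 7 partners had positive differences from 0.10 upward and did not pass the test, among them Ctnnb1 (beta-catenin), the most abundant per length, at 0.31, and Cnst (consortin, a connexin trafficking receptor) at 0.10. Unadjusted, 4 of the 8 had a p under 0.05, where 34.1% of all genes did.

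The lists beside the pannexins held no called gene by edgeR's quasi-likelihood test. Of 8 genes for other large-pore channels, 5 were tested, 4 had positive differences and 1 an unadjusted p under 0.05. Lrrc8b, Lrrc8a and Lrrc8d, subunits of volume-regulated anion channels, were the most abundant per length and differed by 0.24, -0.20 and 0.22 on the log2 scale. Of 19 genes for purinergic receptors and enzymes of extracellular nucleotides, 15 were tested, 11 had positive differences (57.9% of all genes did) and 6 an unadjusted p under 0.05 (34.1% of all genes). Adora1, the adenosine A1 receptor gene, was the most abundant per length and was at 76.6 ± 21.8 CPM in shNT (SD, n = 5) and 133 ± 16.6 in shRNA (SD, n = 4), a log2 difference of 0.80 with an adjusted p of 0.0608 by edgeR. P2rx4 and Entpd3, an ATP-gated channel and an ATP-degrading enzyme, differed by -0.21 and -0.15. Against these, the median over all genes was 0.11.

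Transcripts marking other cell types were also present. Oligodendrocyte precursor markers summed to 63.5 to 92.5 CPM in shNT and 100.9 to 128 in shRNA, and 3 of the 6 (Pdgfra, Gpr17 and Olig2) were called higher, against 1.74% of all genes. Markers of other interneurons ran from 568 to 937 and from 369 to 746 CPM, with 1 of 8 called higher (Cnr1), against the same 1.74%. Pyramidal neuron markers ran from 585 to 1453 and from 1512 to 1894 CPM, with 0 of 8 called. For pyramidal, oligodendrocyte precursor, granule cell and choroid plexus markers, every shRNA sum lay above every shNT sum. Taken singly, 8.97% of all genes tested had every shRNA sample above every shNT sample. Granule cell markers ran from 61.7 to 111 and from 117 to 170.0 CPM, microglial markers from 80.2 to 152 and from 122 to 139, leptomeningeal markers from 18.8 to 31.7 and from 18.1 to 40.4, and choroid plexus markers from 3.28 to 6.38 and from 8.10 to 12.3, with no called gene. All 12 PV IN markers had negative differences (57.9% of all genes had positive ones), with none called. An unadjusted p under 0.05 by edgeR held for 5 of 6 oligodendrocyte precursor, 6 of 8 pyramidal and 2 of 4 granule cell markers. It held for 2 of 8 other interneuron, 3 of 10 microglial and 0 of 6 leptomeningeal markers. It held for 2 of 4 choroid plexus and 2 of 12 PV IN markers, where 34.1% of all genes passed. The part of these markers in the members' values was not tested.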

How the data were processed

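RNA bound to HA-tagged ribosomes of PV INs was sequenced in 9 samples (5 shNT, 4 shRNA). Per the study's methods and the labels, the authors made SMARTer v4 libraries, aligned 50-base reads to mm9 with STAR and counted reads per gene with HTSeq 0.6.0 without strand. The deposited values are raw counts for 37620 Ensembl identifiers, of which 37205 were named with GENCODE vM1, also the source of positions and exon lengths. The annotation the authors counted on is not given in the sources used here. Reads outside exons and ambiguous reads were kept out of library sizes.

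Counts were fitted with edgeR 4.0.16 in R 4.3.3 (TMM, quasi-likelihood test, group only, a CPM of at least 1 in at least 1 sample, 15069 genes kept). A gene was called at a Benjamini-Hochberg adjusted p under 0.05 and at least 1.5-fold. CPM per kb divided the normalized CPM by exon length. Alternatives used DESeq2 1.42.0, limma 3.58.1 (voom with sample quality weights, called limma voom in the text), other scalings, filters, covariates and left-out samples. The code was tested on simulated counts. Members and lists were chosen with earlier results of these data known. Text names the members, called genes and the 3 most abundant genes of each other list described, and the 3 genes most like each member, except for a few items not reported here. Myrf and Lamp5 were found under older symbols, Calhm3 matched no identifier, and Adora3 matched 2, of which the first was used. Each sample was a pool of mice, and p-values measure the spread between these pools, part of which may be technical.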

Additional observations from a re-analysis of the deposited data

Results flagged for a closer look

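In 32 groups of values examined for a sample far from the rest (members, tested family genes, ratios and reads outside exons, in shNT and in shRNA), 6 held such a sample, where chance gives about 1 in 20 groups. The groups are not independent, and 5 of the 6 were the same library, shRNA replicate 4. In it Gjc1 was at 15.2 CPM, against 2.17 to 2.43 in the other shRNA samples, Gjb6 at 80.4 CPM (18.3 to 20.4), Gja1 at 588 CPM (63.0 to 101.2) and Gjb2 at 4.47 CPM (0.964 to 1.32). The log2 ratio of Gjd2 to Gjb6 reads was -2.90 there, against 0.71 to 1.33 in the other shRNA samples. The sixth was the share of reads outside exons in shNT replicate 2, 18.6%, against 9.76% to 11.3% in the other shNT samples.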

How the results depend on the processing

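Of the 7 members, 0 were called by edgeR's quasi-likelihood test, 1 by the likelihood ratio test (Gjb6), 1 by DESeq2 (Gjb6), 3 by limma voom (Gjb1, Gjb6 and Gjc3), 0 to 1 when samples were left out in turn (1 without shNT replicate 2, Gjc3) and 1 without both shNT replicate 2 and shRNA replicate 4 (Gjc3), the last added after seeing the data. Of the other family genes, 2 were called by the likelihood ratio test, 1 by DESeq2 (which gave Gja1 and Gja5 no adjusted p) and 0 with any sample left out. Gja5 passed the filter only through shRNA replicate 4 and could not be tested without it.

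Over all genes, calls higher and lower were 262 and 2 by the quasi-likelihood fit used above, which are not the study's own counts. They were 1688 and 542 by the likelihood ratio test, 1519 and 844 by DESeq2, 2301 and 618 by limma voom, 0 and 0 with library size only, with upper quartile scaling, with filterByExpr, in the YTa31 samples and with the percentage outside exons as a covariate, 199 and 1 with DESeq2 size factors, 501 and 14 without a filter, 376 and 1 with the name sets as a block, and 678 and 2 without both libraries. Leaving out 1 sample gave 0 to 1007 higher and 0 to 410 lower: 0 and 0 without any of shNT replicates 3, 4 and 5 and shRNA replicates 1 and 3, 1007 and 410 without shNT replicate 1, 481 and 1 without shNT replicate 2, 353 and 0 without shRNA replicate 2, and 142 and 0 without shRNA replicate 4. The cause was not tested.

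The Gjd2 difference turned to 0.19 with the covariate and to 0.035 without shRNA replicate 4, its range with samples left out being -0.52 to 0.035. Gjc1 turned to -0.55 by limma voom, -0.85 in the YTa31 samples, -0.86 with the covariate, -0.75 without shRNA replicate 4 and -0.55 without both libraries. Gjc1 ran from -0.75 to 0.79 and Panx2 from -0.32 to -0.03 with samples left out. Panx2 turned to 0.0030 without both libraries. The median over all genes was 0.07 to 0.17 under the 4 scalings, and relative to it the members kept their signs. Without shNT replicate 2, the log2 ratio of Gjd2 to Gjc3 reads differed by -2.06.

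Replicate numbers did not pair the samples (r of same-numbered deviations -0.267, -0.641, 0.486 and -0.181, and 1 of 4 shRNA samples correlated best with its own number). With the replicate block, 0 members, 0 other family genes and 34 genes higher and 0 lower were called, Gjd2 differed by -0.51 and Gjc1 by -0.26. Gjc1 and Gjb1, at a few CPM, rest on fewer reads than the other members.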
